A study of Caenorhabditis elegans with 4 samples.

Results

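Wide NFYA-1 bound domains were defined as the intervals of the combined peak list that spanned 1000 bp or more from start to end. Of the 5320 combined intervals, 200 met this rule (3.76%, exact Clopper-Pearson 95% interval 3.26 to 4.31), and the other 5120 were narrower. The data came from chromatin immunoprecipitation followed by sequencing (ChIP-seq) of Caenorhabditis elegans late embryos, with 2 ChIP libraries and 2 input libraries from a single strain. All 4 libraries were from hermaphrodite strain OP404, grown at 20 °C. It carries the allele unc-119(ed3) on chromosome III and the transgene wgIs404, which holds an nfya-1::TY1-GFP-3xFLA fusion and an unc-119(+) rescue gene. The transgene was introduced by bombardment, and per the labels the fusion protein is expressed in the pattern of nfya-1 itself. No untagged strain was among the samples, and the labels do not say whether replicates came from separate cultures. The 3 peak lists analysed were called from ChIP replicate 1, from ChIP replicate 2 and from the combined data, on build WormBase WS180. Their only measured value is the authors' q-value per interval, and strength below means −log10 of that q-value. Strength depends on sequencing depth, which is unknown here, as well as on enrichment.

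NFYA-1 is the C. elegans counterpart of NF-YA, the subunit of the trimeric factor NF-Y that reads the CCAAT box in DNA. The other subunits, NF-YB and NF-YC, form a histone-like pair that NF-YA joins before the complex binds. In mammals CCAAT boxes often lie close to transcription start sites, and a single protein-DNA contact is much shorter than a ChIP-seq interval. The width of an interval also depends on fragment length, on read depth and on how the peak caller joins neighbouring signal. What the annotation places at the wide domains, and their sequence, were not analysed here, because no genome or gene table of build WS180 was used.

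The domains were chosen by width in a list named as the combination of these same libraries, so width, strength and overlap with the replicates are given as descriptions without a test. Intervals for shares and medians treat regions as independent and cover counting error only. Regions are not replicates of a condition, and neighbouring regions share chromatin and reads.

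The wide domains measured 1000 to 4672 bp, with a median of 1256 bp (95% interval of the median 1209 to 1291) and quartiles of 1094 and 1551 bp. The narrower intervals had a median of 346 bp. Of the wide domains, 145 measured 1000 to 1499 bp, 29 measured 1500 to 1999 bp and 26 measured 2000 bp or more. Together they spanned 288.3 kb, which was 12.7% of the bases in the combined list. The threshold cut a continuous range of widths. Just inside it were III from 6420517 to 6421516 and IV from 8079678 to 8080677, both 1000 bp wide, and X from 992502 to 993503, at 1002 bp. Just outside were II from 6835534 to 6836524 at 991 bp, II from 13461484 to 13462470 at 987 bp and III from 12638530 to 12639514 at 985 bp.

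Most wide domains were strong, but the widest were not always the strongest. The median −log10 q was 35.4 for wide domains (28.8 to 42.7) and 7.96 for narrower intervals (7.75 to 8.13). With the combined list split into 10 equal parts by rank, 111 of the 532 strongest intervals were wide (20.9%), against 32 of the next 532 (6.02%) and 0 of the weakest 532, which allows a share of up to 0.691% there (exact 95% upper bound). Among the wide domains alone, width and strength had a Spearman's rho of 0.353 (n = 200 domains of the same list). The width rule limits the range of widths behind this value. The widest domain was weak among wide domains, below their lower quartile of strength (−log10 q of 15.6), though above the median of narrower intervals. It ran on X from 11931592 to 11936263 (4672 bp) with a combined q of 7.38e-14, rank 1638 of the list. A strong domain of 1006 bp lay 497 bp to its right, from 11936761 to 11937766, with a q of 1.68e-43.

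**Figure D1:**
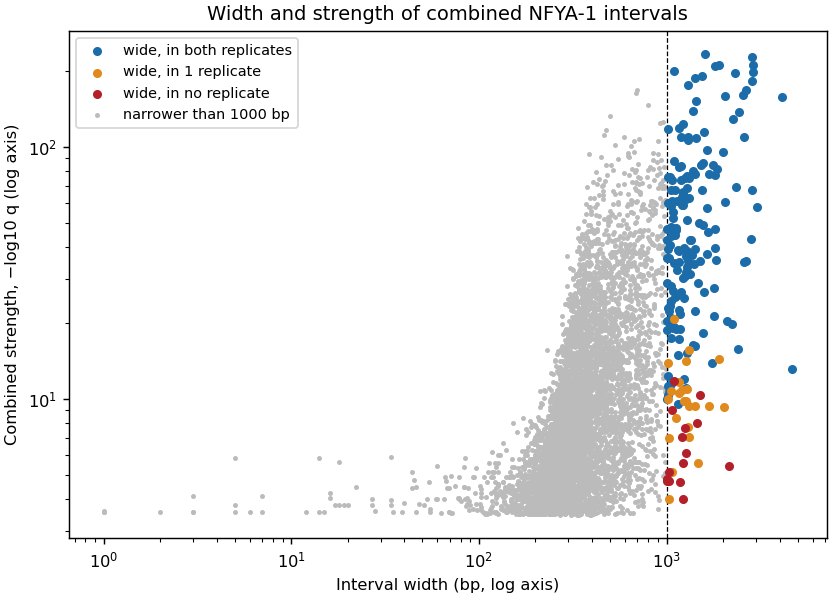
Strength of each combined interval, as −log10 of the authors' q-value, against its width in bp, both on log axes. Coloured points are the 200 wide domains by the number of replicates they overlap (161 in both, 24 in 1, 15 in none), grey points are the 5120 narrower intervals, and the dashed line marks 1000 bp. The wide domains found in no replicate have a −log10 q of 11.8 or less.

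The strongest and the widest wide domain of each chromosome were found in both replicates. The second widest ran on V from 14685532 to 14689640 (4109 bp, q of 3.64e-158). Next, also on V, was the domain from 6222763 to 6225813 (3051 bp, q of 1.82e-58). The fourth was on X from 6090442 to 6093336 (2895 bp) and the fifth on IV from 8430355 to 8433246 (2892 bp), which was also the strongest on IV. On I, the widest was the strongest as well, from 1834589 to 1837459 (2871 bp, q of 8.66e-228). On II the widest ran from 14249297 to 14251939 (2643 bp, q of 6.03e-168). The strongest wide domain of II, from 11748538 to 11750450, measured 1913 bp. On III the widest ran from 833564 to 836413 (2850 bp) and was far from the strongest, with a q of 3.69e-68 against 1.66e-233 at 1618209 to 1619804. Those 2 domains of III measured 2850 and 1596 bp. The strongest wide domain of V, from 9730702 to 9732240, measured 1539 bp, and that of X, from 16611222 to 16613027, measured 1806 bp.

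Wide domains made up a larger share of the intervals on X than on the autosomes. On X, 42 of 713 combined intervals were wide (5.89%, 95% interval 4.28 to 7.88). On I to V together, 158 of 4607 were wide (3.43%, 2.92 to 4.0). The shares on single autosomes were close to each other, from 3.05% on I (28 of 917) and 3.17% on III (36 of 1136) through 3.38% on II and 3.68% on V to 3.99% on IV (34 of 853). The interval of X overlapped that of each single autosome. The replicate 1 list gave 5.61% wide on X (22 of 392, 3.55 to 8.37) and 2.90% on I to V (73 of 2515, 2.28 to 3.64). The replicate 2 list gave 3.14% on X (12 of 382, 1.63 to 5.42) and 1.97% on I to V (58 of 2937, 1.5 to 2.55). X was therefore above the autosomes in all 3 lists, with intervals that overlapped in each replicate. Among combined intervals found in both replicates, 11.7% were wide on X (36 of 307, 8.35 to 15.9) and 5.78% on I to V (125 of 2162, 4.84 to 6.85). Among the 500 strongest intervals, 22 of 71 on X (31.0%, 20.5 to 43.1) and 87 of 429 on I to V (20.3%, 16.6 to 24.4) were wide. Single autosomes there ran from 15.9% on III (23 of 145) to 30.0% on V (18 of 60, 18.8 to 43.2). In that set V was thus close to X. As a ratio over all combined intervals, the share on X was 1.72 times that on I to V. With a minimum width of 1500 bp it was 1.62 times, at 11 of 713 on X (1.54%, 0.773 to 2.74) and 44 of 4607 on I to V (0.955%, 0.695 to 1.28). With 800 bp it was 1.27 times, at 61 of 713 on X (8.56%, 6.61 to 10.9) and 311 of 4607 on I to V (6.75%, 6.04 to 7.51). The intervals of X and of I to V overlap at both of these widths. Without the stretch of X from 11000001 to 12000000, X exceeded I to V by 1.87 percentage points.

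Per Mb of chromosome, the order was different. III had 2.62 wide domains per Mb of span (95% interval 1.83 to 3.63), X had 2.43 (1.75 to 3.28), IV had 1.95, II had 1.90, I had 1.86 and V had 1.49 (1.01 to 2.11). The intervals of neighbours in this order overlap. The density on III was 1.47 times that on I, II, IV and V (0.986 to 2.15), against 1.63 times for all combined intervals. That on X was 1.26 times that on I to V (0.878 to 1.79), against 0.736 times for all combined intervals. Both intervals for wide domains include 1. The span of a chromosome was taken from the first to the last interval over the 3 lists.

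**Figure D2:**
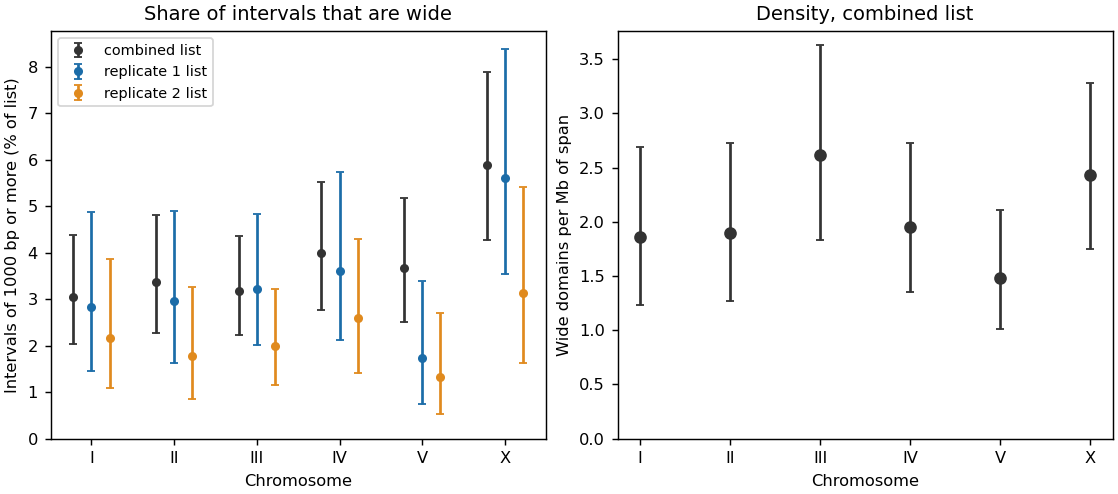
Left, the percentage of intervals on each chromosome that are 1000 bp or wider, in the combined, replicate 1 and replicate 2 lists, with exact 95% intervals. Right, wide domains of the combined list per Mb of span, with exact Poisson 95% intervals. X has the highest share in each list (5.89%, 5.61% and 3.14%), while III has the highest density, 2.62 per Mb.

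Along the chromosomes, 38% of wide domains and 36.1% of narrower intervals lay in the central part when each span was cut in 3. On I, 17 of 28 wide domains lay there (60.7%, 40.6 to 78.5), against 341 of 889 narrower intervals (38.4%, 35.1 to 41.6). On II the counts were 14 of 29 (48.3%, 29.4 to 67.5) and 312 of 830 (37.6%, 34.3 to 41.0). On X they were 11 of 42 (26.2%, 13.9 to 42.0) and 215 of 671 (32.04%, 28.5 to 35.7). The right part of III held 20 of 36 wide domains (55.6%, 38.1 to 72.1) and 395 of 1100 narrower intervals (35.9%, 33.1 to 38.8). Over all chromosomes the left part held 25% of wide domains (19.2 to 31.6) and 31.7% of narrower intervals (30.5 to 33.03), and the right part held 37% and 32.2%. For each part of each chromosome, and for each part over all 6, the intervals of wide and narrower overlap. The densest 1 Mb stretch was I from 7000001 to 8000000, with 8 wide domains among 70 combined intervals, where the mean over 103 stretches was 1.94 ± 1.71 (SD). They ranged in strength from a q of 4.62e-201 at 7020865 to 7021961 to 2.15e-16 at 7078810 to 7080121. Next came X from 11000001 to 12000000, with 7 among 52. No wide domain fell in 21 of the 103 stretches. Some of the 21 are end stretches that run past the last interval of their chromosome, and the mean counts them too. The stretch of I from 15000001 to 16000000 held 0 combined intervals.

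Neighbouring wide domains were mostly far apart, with a minority in close pairs. Over the 194 gaps between neighbours on the same chromosome, the median was 285 kb (95% interval 221 to 391), with quartiles of 52.7 and 660 kb. Chromosome medians ran from 211 kb on II to 461 kb on V, with overlapping intervals (95.7 to 623 and 201 to 957 kb). The largest gap, 2681 kb, was on II, and 29 gaps exceeded 1 Mb. At the other end, 15 gaps were under 1 kb and 11 of those under 500 bp. In all 15 close pairs no other combined interval lay between the members, and no replicate interval overlapped 2 wide domains. A median of 16 narrower intervals lay between neighbours over the 194 gaps. The closest pair was on IV, from 14610841 to 14612049 and from 14612257 to 14613258, 207 bp apart. Both members were weak among wide domains, below their lower quartile of strength, with q-values of 1.38e-11 and 1.11e-10. No neighbours in the combined list, of any width, lay under 200 bp apart, so this gap is near that floor. On I, a close pair of strong domains from 5311078 to 5312434 and from 5312689 to 5313992 had q-values of 2.20e-43 and 6.41e-107, 254 bp apart. On III a strong pair lay 463 bp apart, from 8799668 to 8800888 and from 8801352 to 8802653, with q-values of 7.33e-124 and 3.60e-110.

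Wide domains had other combined intervals close by more often than narrower intervals did. The nearest combined interval of any width was under 1000 bp away for 86 of 200 wide domains (43.0%, 36.0 to 50.2), against 929 of 5120 narrower intervals (18.1%, 17.1 to 19.2) and 19.1% of all combined intervals. The median gap to the nearest interval was 1409 bp for wide domains (996 to 1681) and 4022 bp for narrower ones (3804 to 4223). The shares also differed among strong intervals. Among the 500 strongest intervals, 42.2% of 109 wide domains and 22.3% of 391 narrower intervals had a neighbour under 1000 bp away. Among the wide domains of 1500 bp or more, the share was 60.0%. For wide domains by chromosome it was highest on II (69.0% of 29) and IV (61.8% of 34, 43.6 to 77.8), and from 30.6 to 35.5% on the other 4. The interval of IV overlaps that of V (19.2 to 54.6). No share of narrower intervals by chromosome is given here, so crowding of all intervals on II and IV cannot be told apart from this. Joined across gaps under 1000 bp, the 200 domains formed 185 stretches, of which 114 held the domain alone, 71 held at least 2 intervals and 15 held 2 wide domains. The longest stretch, 6175 bp on X from 11931592 to 11937766, held the widest domain of the list. One crowded region, picked after its values were seen, was on II. There the domains at 6826667 to 6828447, 6830915 to 6832148 and 6838206 to 6839253 had 11, 12 and 11 other combined intervals within 10 kb, against a median of 2 for wide domains and 1 for narrower intervals.

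**Figure D3:**
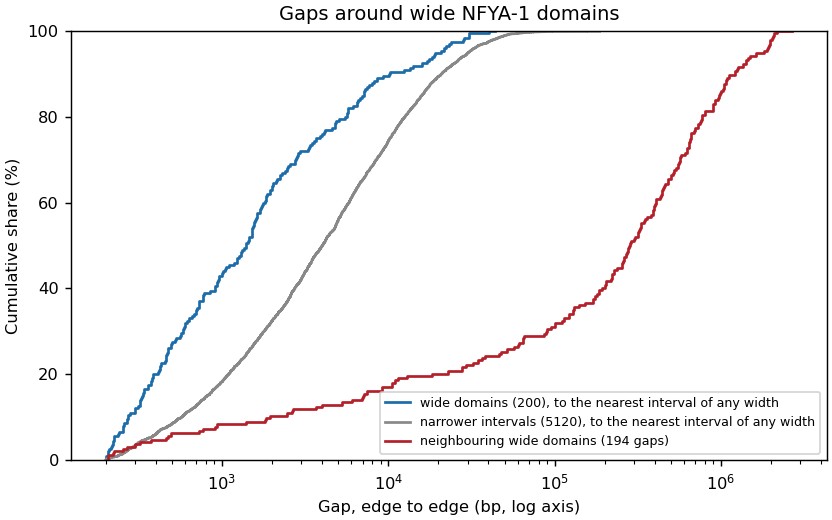
Cumulative share of gaps, edge to edge on a log axis, from each wide domain and each narrower interval to its nearest combined interval, and between neighbouring wide domains. At 1000 bp the curve of wide domains stands at 43.0% and that of narrower intervals at 18.1%, while most neighbouring wide domains are over 100 kb apart.

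Most wide domains were found in both replicates. Of the 200, 161 overlapped intervals of both by at least 1 bp (80.5%, 74.3 to 85.8), against 45.1% of narrower intervals and 46.4% of all combined intervals. Replicate 1 overlapped 171 wide domains (85.5%, background 53.8%) and replicate 2 overlapped 175 (87.5%, background 60.5%). The combined list is named as the combination of both, and a wide interval meets more bases, so these shares are descriptions. All 109 wide domains among the 500 strongest intervals were found in both replicates, as were all 391 narrower ones. Support differed in the middle of the list. Of the intervals ranked 1001 to 2660, 55.6% of 45 wide domains and 78.5% of 1615 narrower intervals were in both replicates. Beyond rank 2660 the intervals of wide and narrower overlapped. There 0 of 18 wide domains (exact upper bound 18.5%) and 178 of 2642 narrower intervals (6.74%) were in both, and 12 of the 18 (66.7%, 41.0 to 86.7) and 62.4% of the narrower intervals were in neither.

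The 39 wide domains that 1 or both replicates lack were among the weaker ones. Of these, 14 overlapped replicate 2 alone, 10 overlapped replicate 1 alone, and 15 (7.50%, 4.26 to 12.1, background 32.1%) overlapped neither. The median −log10 q was 44.5 for domains in both, 9.81 for domains in 1 and 5.59 for domains in none. Their median widths were 1272, 1250.5 and 1212 bp. The strongest of the 39 was I from 9374527 to 9375623, at rank 938 with a q of 2.09e-21. Replicate 2 covered 100% of it and replicate 1 none. The next was I from 7078810 to 7080121 (q of 2.15e-16), again found in replicate 2 alone. The strongest found in replicate 1 alone was II from 4573904 to 4575806, with a q of 4.22e-15 and 25.5% of its bases covered. The strongest found in neither was IV from 3520958 to 3522057 (1100 bp, q of 1.58e-12). The widest found in neither was X from 11965627 to 11967782 (2156 bp, q of 3.90e-06). Per chromosome, domains in neither replicate were most numerous on IV (5 of 34) and V (4 of 31).

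Most wide domains held a single interval of each replicate. Replicate 1 had 1 interval in 153 domains, 2 in 16, 3 in 2 and none in 29, so 18 were split (9%, background 0.432%). Replicate 2 had 1 interval in 155, 2 in 19, 3 in 1 and none in 25, so 20 were split (10.0%, background 0.508%). At least 1 replicate had 2 or more separate intervals in 29 domains (14.5%, 9.93 to 20.2), against 10 of 5120 narrower intervals (0.195%, 0.0937 to 0.359) and 0.733% of all combined intervals. Narrower intervals have less room for separate pieces, so the rule itself bears on this contrast. In 9 domains both replicates were split (4.50%, background 0.207%). No interval under 500 bp was split. Split domains were more frequent at widths of 1500 bp or more, where there is room for separate intervals. Of the domains, 6.21% of 145 at 1000 to 1499 bp, 37.9% of 29 at 1500 to 1999 bp and 34.6% of 26 at 2000 bp or more were split. Of the 29, 10 lay on III, where 27.8% of 36 domains were split. On V 25.8% of 31 were split (11.9 to 44.6) and on X 11.9% of 42 (3.98 to 25.6). The shares were 2.94% of 34 on IV (0.0744 to 15.3) and 3.57% of 28 on I. The intervals of V, X and IV overlap.

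The domain at III from 11946278 to 11947832 (1555 bp, combined q of 1.56e-49) held 3 separate intervals of each replicate. The replicate 1 intervals ran from 11946295 to 11946585, 11946968 to 11947309 and 11947517 to 11947852, and were 291, 342 and 336 bp wide. The replicate 2 intervals ran from 11946302 to 11946573, 11946964 to 11947209 and 11947545 to 11947779, at 272, 246 and 235 bp. The 3 intervals of 1 library each overlapped their counterpart in the other. The middle interval was the strongest in both, with q-values of 2.90e-15 and 2.43e-13 (replicates 1 and 2).

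The next most divided domain was II from 6826667 to 6828447, with 3 intervals in replicate 1 and 2 in replicate 2. The rightmost of its replicate 1 intervals was 1754 bp wide and ran 1313 bp past the right edge of the domain. Several domains had 2 intervals in each replicate, among them the 2333 bp domain on I from 1068020 to 1070352. There the replicates together covered 100% of the bases. The 4109 bp domain of V was divided the same way in both libraries. Its left interval was 1111 bp wide in replicate 1 (q of 7.62e-140) and 1276 bp in replicate 2 (8.37e-141). Its right interval was 966 bp (1.12e-08) and 927 bp (8.23e-09). Between them lay 1906 bp with no replicate 1 interval and 1771 bp with no replicate 2 interval.

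**Figure D4:**
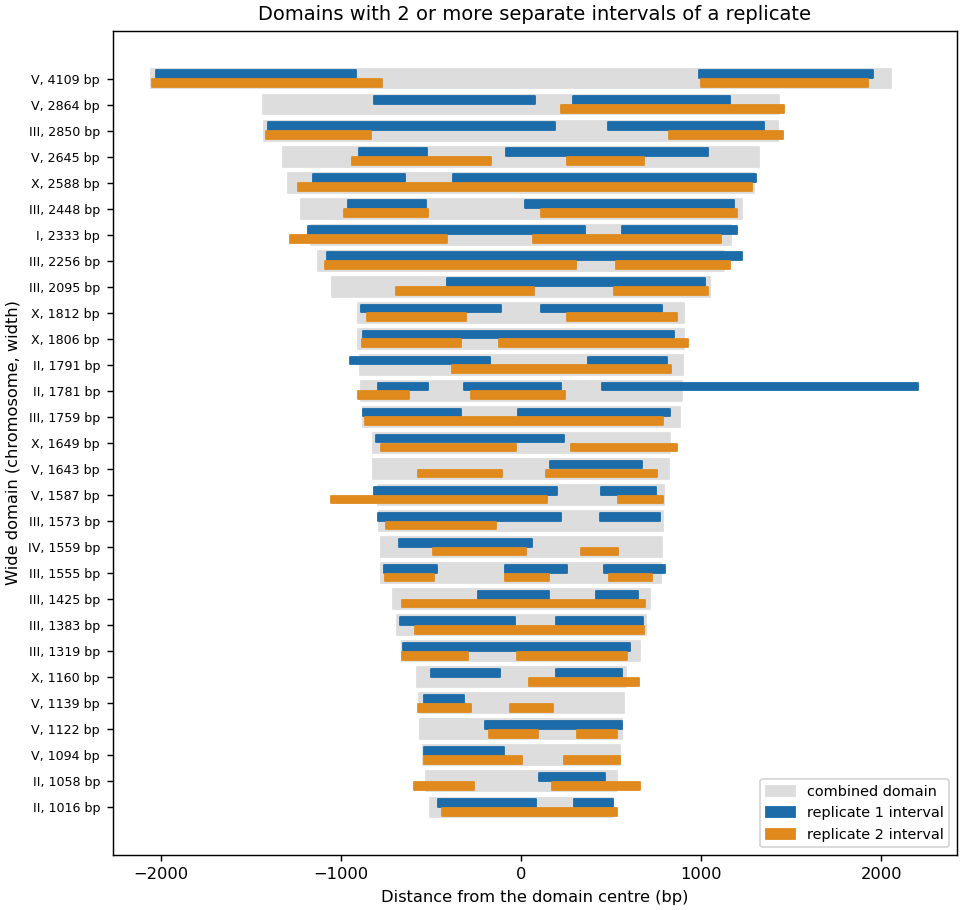
The 29 wide domains in which a replicate has 2 or more separate intervals, aligned at the domain centre and ordered by width, with chromosome and width on the vertical axis. Grey bars are combined domains, blue bars replicate 1 intervals and orange bars replicate 2 intervals, drawn to scale. The widest, on V, has a strong left and a weak right interval in both replicates.

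Pieces of a split domain were sorted by strength, which fixes the order of the values that follow. In the 18 domains split in replicate 1, the strongest piece had a median −log10 q of 21.7 and the weakest 6.78, and the median gap was 254.5 bp (range 201 to 1906). In the 20 domains split in replicate 2 the medians were 14.6 and 5.15, and the gap was 343 bp (215 to 1771). Gaps between neighbouring combined intervals were also never under 200 bp, so the shortest gaps here are near that floor. What sets the floor was not tested. In 8 of the 9 domains split in both replicates, the gaps shared bases. Where replicate 1 alone was split, the single replicate 2 interval bridged the gap in 6 of 9 domains. Where replicate 2 alone was split, a single replicate 1 interval bridged it in 5 of 11. In 20 of the 29 split domains, 1 replicate alone was split.

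The replicate intervals covered a smaller share of a wide domain than of a narrower interval of like rank, over the first 2660 ranks. Over all 200 domains the median share covered was 70.4% by replicate 1 (62.4 to 77.0), 64.6% by replicate 2 (59.3 to 70.0) and 80.04% by either (73.9 to 86.9). Of their 288252 bases, 50.5% lay under intervals of both replicates and 72.5% under at least 1. At ranks 1 to 500, replicate 1 covered a median of 84.4% of wide domains and 88.9% of narrower intervals, and replicate 2 covered 79.6% and 91.3%. At ranks 501 to 1000 the medians in replicate 1 were 64.5% for wide and 88.9% for narrower, and in replicate 2 they were 61.9% and 87.8%. At ranks 1001 to 2660 they were 44.1% and 83.3% in replicate 1, and 40.7% and 82.05% in replicate 2. These medians count an interval that a replicate lacks as uncovered. At ranks 1001 to 2660 a smaller share of wide than of narrower intervals was in both replicates. Over the whole list the median covered by either replicate was 84.5% for narrower intervals. Many weak narrow intervals have no replicate overlap, and with replicate 1 alone the order turned, at 70.4% for wide domains and 56.6% for narrower intervals. Among intervals found in both replicates, either replicate covered a median of 87.6% of wide domains (80.7 to 92.7) and 94.01% of narrower ones (93.7 to 94.4).

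**Figure D5:**
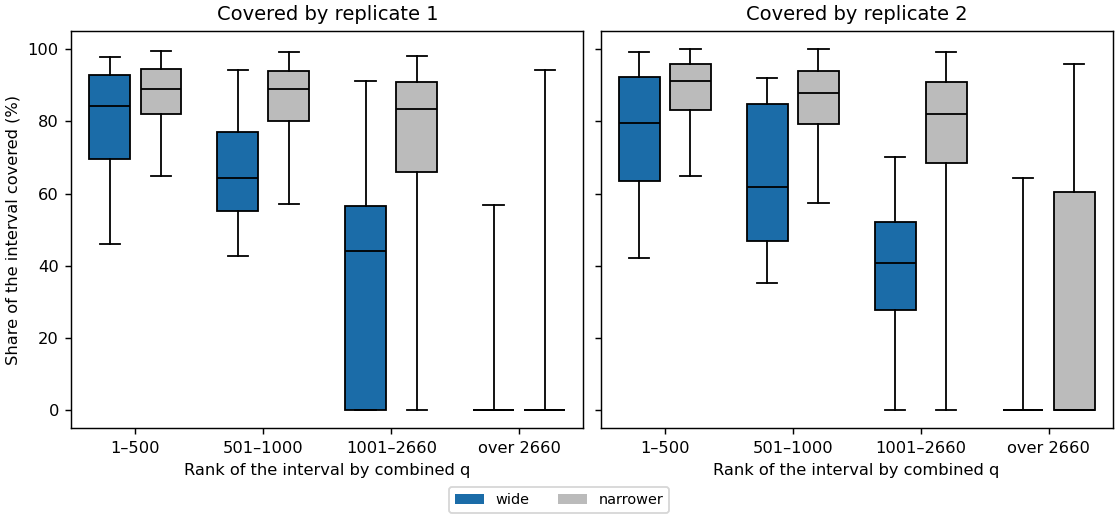
Share of each combined interval covered by replicate 1 (left) and replicate 2 (right) intervals, in 4 classes of rank by combined q, with wide domains in blue and narrower intervals in grey. Boxes span the quartiles with the median as a line, and whiskers reach the 5th and 95th percentiles. Wide domains have the lower median in the first 3 classes, with 64.5% against 88.9% in replicate 1 at ranks 501 to 1000.

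In the 161 wide domains found in both replicates, 46033 bases lay outside every replicate interval. Of these bases, 78.9% lay at the longer free end of a domain, 7.95% at the shorter free end and 13.1% between replicate intervals, where the order of the 2 ends is set by sorting them. In 100 of the 161 domains each free end was under 200 bp. In 61 (37.9%, 30.4 to 45.9) at least 1 end was free over 200 bp or more, in 3 of them both ends, and in 21 (13.04%) at least 1 end was free over 500 bp or more. An uncovered run of 200 bp or more between replicate intervals was present in 13 (8.07%, 4.37 to 13.4). Narrower intervals have little room for such runs, so no comparison with them is made here. The 3051 bp domain of V was one of the 3 with both ends free. Replicate 1 held an interval of 760 bp there and replicate 2 an interval of 442 bp. The left side was free over 1686 and 1641 bp and the right side over 605 and 968 bp (replicates 1 and 2). In the 2892 bp domain of IV the free left ends were 1152 and 1003 bp. In the 2895 bp domain of X they were 1129 and 1045 bp. On these domains of IV and X, the right edges of the replicates lay within 221 bp of the domain edge. The median distance between the left edges of the replicates was 68 bp in wide domains (52 to 84) and 27 bp in narrower intervals (25 to 28), which are also shorter. The strongest intervals of the 2 replicates overlapped in 159 of the 161.

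At the widest domain, on X, the replicates were offset. Replicate 1 had 1 interval of 3635 bp from 11931640 to 11935274 (q of 0.000103), and replicate 2 had 1 of 2963 bp from 11933168 to 11936130 (q of 2.39e-07). They covered 77.8% and 63.4% of the domain, and 45.1% lay under both. The replicate 1 interval ranked low in its list, at 2681 of 2907, and the replicate 2 interval stood near the middle, at 1722 of 3319.

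Replicate 1 had the smaller q-value at most wide domains. In the 161 found in both, the median log2 ratio of −log10 q, replicate 1 over replicate 2, was 0.16 (0.06 to 0.25), and 104 (64.6%, 56.7 to 72.0) were stronger in replicate 1. In narrower intervals the median was -0.02 and 48.3% of 2308 were stronger in replicate 1. In domains of 2000 bp or more the share was 79.2%. Each domain was represented by its strongest interval in each replicate, and these values compare 2 libraries of unknown depth.

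Wide intervals were also a larger part of the replicate 1 list than of the replicate 2 list. Replicate 1 held 95 intervals of 1000 bp or more (3.27%, 2.65 to 3.98) and replicate 2 held 70 (2.11%, 1.65 to 2.66). Of these, 86 of 95 and 62 of 70 overlapped a wide combined domain. Another 5 and 4 overlapped narrower combined intervals alone, and 4 in each list overlapped no combined interval used here. The other replicate had an interval of 1000 bp or more at 52 of the 95 and at 52 of the 70. Seen from the combined list, the strongest replicate 1 interval was 1000 bp or wider in 84 of the 200 domains (42.0%), and the strongest replicate 2 interval in 61 (30.5%). The 29 domains without a replicate 1 interval and the 25 without a replicate 2 interval stay in these totals of 200. Over the 171 and 175 domains with an interval, the median width of the strongest was 989 bp (900 to 1039) in replicate 1 and 874 bp (782 to 937) in replicate 2. The median over all combined domains was 1256 bp.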

How the data were processed

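ChIP-seq peak lists of NFYA-1::GFP late embryos were analysed, from 2 ChIP replicates and their combined data. Per the file headers, the authors called peaks with PeakSeq on build WormBase WS180. Per the labels' protocols, worms were crosslinked with 2% formaldehyde and 10% of the lysate was kept as input. The value deposited by the authors is a q-value per peak, and −log10 q was computed from it. The aligner, thresholds, use of the inputs and way of combining the lists bear on interval width and are not given in the labels or headers used here. Read depth is unknown.

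Wide domains were combined intervals of 1000 bp or more. Overlap meant at least 1 bp. Covered bases, separate replicate intervals, gaps and positions were computed with pandas 2.3.3 and NumPy 2.4.6 in Python 3.11.15. Intervals came from SciPy 1.17.1 and plots from matplotlib 3.10.9, and the functions were tested on simulated data. Shares carry Clopper-Pearson and medians order-statistic 95% intervals. No test was made, as no measure is independent of the width rule and regions are not replicates. Named regions were the widest and strongest of each chromosome, the 5 widest, the 3 most divided (7 domains tied for the last place, of which 2 are named), the closest pair, the densest stretch, some that a replicate lacks, and the 3 on each side of the threshold. Other named pairs were chosen after their values were seen. The members and lists were chosen with earlier results of these data known. The only gene table used here belongs to another build (WBcel235), so no gene or sequence was assigned.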

Additional observations from a re-analysis of the deposited data

How the results depend on the processing

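The 10 results were recomputed under 44 alternatives. Of these values, 19 stayed within the 95% interval of the reported value (counts within 1.5 times), 24 left it and 1 changed sign. For differences between groups, the interval used carries the error of 1 group alone, the wide domains or X. The alternatives on X against I to V, on ranks 501 to 1000 and on close neighbours were chosen after seeing the data. With a minimum width of 800 bp there were 372 domains (6.99% of intervals, median gap 151 kb), and with 1500 bp 55 domains (1.03%, median gap 782 kb). At 1500 bp, 36.4% were split in a replicate, 60.0% had a neighbour under 1000 bp away, and X exceeded I to V by 0.588 percentage points, a ratio of 1.62 on smaller shares, where it was 1.72 at 1000 bp. The wide share was 6.52% among intervals in both replicates and 2.11% in the replicate 2 list. The share of domains in both replicates was 55.0% where each had to cover 50% of the domain, and 67.0% with the stronger 50% of each replicate list. With those, 6% were split and the median share covered was 72.8%. Counting replicate intervals wholly inside, 8.50% were split. Leaving out 1 replicate gave 9 to 10% split and a median of 64.6 to 70.4% covered. The difference in median share covered, wide minus narrower, was -4.43 percentage points (-10.6 to 2.38, from the error of the wide domains alone). These bounds lie on both sides of no difference. The difference was -3.03 among the 500 strongest intervals, -19.2 at ranks 501 to 1000 and -14.0 against narrower intervals in both replicates. Without replicate 1 it was -5.24, and without replicate 2 it was 13.8. The density ratio of III was 2.15 in the replicate 1 list. The excess of X over I to V was 5.94 percentage points among intervals in both replicates and 10.7 among the 500 strongest. In the latter set V (30.0%) was close to X (31.0%). No paired analysis was possible because no result comes from a test between groups, and the inputs were not analysed here. Depth is unknown, so a domain missing from a replicate list cannot be called unbound there.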
